A study of Mus musculus with 4 samples.

Results

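The serpins are a family of proteins that share 1 fold and mostly inhibit serine or cysteine proteases. The array annotation gave 40 genes whose symbol starts with Serpin and that have a probe set assigned to that gene alone, of 18194 such genes in all. They were chosen by symbol, and each was represented by the probe set with the highest mean level. Of the 40, 16 lay above the floor of the deposited values (a linear level of 10, or 3.32 on the log2 scale) on at least 1 array, and 9 on all 4 arrays. The other 24 were at the floor throughout.

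RNA came from Comma D beta, a mouse mammary epithelial cell line, grown with 2% serum, insulin (5 ug/ml) and EGF (10 ng/ml). The 4 groups were untreated Sca1+ cells, untreated Sca1- cells, and the Sca1+ and Sca1- cells of cultures given doxycycline (dox) at 100 ng/ml for 1 day, sorted by the surface marker Sca1. Each group was 1 array, so no value below has a replicate error, and a difference between arrays was counted by size alone, at 2-fold or more (a log2 difference of 1). The series title names Bcl11b, but the sources used here do not say what dox controls in this line.

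A typical inhibitory serpin offers its reactive-centre loop as bait, is cut by the protease, and springs into a form that traps the enzyme. Clade A and the small clades C, D, F, G and I are largely secreted and control clotting, complement and fibrinolysis. Clade B members lack a classical signal peptide, stay mostly inside cells, and restrain granule and lysosomal proteases or, in epithelia, affect adhesion and survival. A few members inhibit nothing known: Serpinh1 (Hsp47) is a collagen chaperone of the endoplasmic reticulum, Serpinb5 (maspin) is a mammary and skin epithelial protein first described as a tumour suppressor, and Serpinf1 (PEDF) is an antiangiogenic factor.

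The 250 bases upstream of the start are shown for the 3 clade B genes of chromosome 1 above the floor, each 2-fold higher with dox in at least 1 fraction, for Serpini1, which was at the floor without dox, and for Serpinh1, which was lower. They are RefSeq sequences of build GRCm38.p6, written 5' to 3' on the gene's strand, at chr1:106860925-106861174 (plus strand, Serpinb5), chr1:107511173-107511422 (plus, Serpinb2), chr1:107589756-107590005 (plus, Serpinb8), chr3:75557243-75557492 (plus, Serpini1) and chr7:99353240-99353489 (minus, Serpinh1). For Serpinb2 the more upstream of 2 listed starts was taken. Capitals mark matches on either strand to 6 short motifs. The core promoter motifs were the box TATAAA, the box named after its letters CCAAT, and the binding sequence of Sp1, which reads GGGCGG. The others were the AP-1 site, TGANTCA, the heat-shock element, GAANNTTC, and a sequence bound by Bcl11a, the paralogue of Bcl11b, which reads TGACCA. No matches overlapped in these windows.
Serpinb5: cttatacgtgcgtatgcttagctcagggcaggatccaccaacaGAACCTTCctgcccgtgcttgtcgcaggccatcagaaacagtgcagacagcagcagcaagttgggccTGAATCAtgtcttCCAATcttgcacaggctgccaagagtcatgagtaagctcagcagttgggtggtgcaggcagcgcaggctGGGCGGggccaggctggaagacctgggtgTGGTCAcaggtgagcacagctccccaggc
Serpinb2: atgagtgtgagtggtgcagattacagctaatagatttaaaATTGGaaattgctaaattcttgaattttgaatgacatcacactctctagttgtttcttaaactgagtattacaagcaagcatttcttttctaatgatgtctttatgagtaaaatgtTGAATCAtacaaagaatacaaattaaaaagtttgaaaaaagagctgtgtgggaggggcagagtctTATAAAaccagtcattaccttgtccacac
Serpinb8: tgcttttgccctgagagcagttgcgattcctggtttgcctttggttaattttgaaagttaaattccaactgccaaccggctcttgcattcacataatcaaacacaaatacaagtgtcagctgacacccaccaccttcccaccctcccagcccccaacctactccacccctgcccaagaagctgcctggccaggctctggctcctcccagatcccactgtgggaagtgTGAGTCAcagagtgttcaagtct
Serpini1: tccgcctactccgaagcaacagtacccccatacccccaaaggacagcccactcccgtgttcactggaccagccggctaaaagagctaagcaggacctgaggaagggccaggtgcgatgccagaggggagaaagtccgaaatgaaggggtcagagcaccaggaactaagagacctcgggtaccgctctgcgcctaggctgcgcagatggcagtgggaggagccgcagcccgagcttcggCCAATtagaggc
Serpinh1: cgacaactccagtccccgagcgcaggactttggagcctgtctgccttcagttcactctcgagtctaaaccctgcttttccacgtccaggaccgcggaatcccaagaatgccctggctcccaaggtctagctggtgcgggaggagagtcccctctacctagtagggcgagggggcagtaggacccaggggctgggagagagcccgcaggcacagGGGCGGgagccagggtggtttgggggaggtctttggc

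The 3 chromosome 1 windows each hold TGANTCA, whose first base lies 140, 94 and 23 bases before the start of Serpinb5, Serpinb2 and Serpinb8. These letters occur in 6.75% of 32851 RefSeq windows of this length. Of the Serpin genes above the floor, 14 had a window and these 3 held the letters. Of the genes at the floor, 5 of 20 held them, including Serpinb7, Serpinb11 and Serpinb12 of the same chromosome. Only Serpinb2 of the 5 printed windows has TATAAA (12.4% of all windows), 29 bases before its start, and Serpinb5 alone has TGACCA (11.4%), on the opposite strand, and GAANNTTC (6.69%). Serpini1 has 1 CCAAT, a motif of 33.8% of windows. Serpinh1, a heat-shock gene, has 1 GGGCGG (32.7%), and GAANNTTC is not among the letters of this stretch. A match is a run of letters, and none was tested for binding here.

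Family members differed in whether they were detected at all. Of 14 clade A genes, which include the mouse copies of alpha-1-antitrypsin (Serpina1) and antichymotrypsin (Serpina3), 2 were above the floor on any array. Serpina9, a serpin described in germinal-centre B cells, read 3.32 (log2) on both untreated arrays, 5.82 in dox Sca1+ and 3.97 in dox Sca1- cells. Serpina11 read 3.53 in dox Sca1+ cells and 3.32 on the other 3 arrays. Of 18 clade B genes, 10 were above the floor on at least 1 array and 8 on all 4. Single genes of the other clades followed: Serpinc1, Serpinf1, Serpinh1 and Serpini1.

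The genes at the floor on every array were Serpina1b, Serpina1c, Serpina1f, Serpina3a, Serpina3i, Serpina3n, Serpina4-ps1, Serpina5, Serpina6, Serpina7, Serpina10, Serpina12, Serpinb3a, Serpinb6c, Serpinb7, Serpinb9c, Serpinb9d, Serpinb9g, Serpinb11, Serpinb12, Serpind1, Serpinf2, Serping1 and Serpini2. They include the complement inhibitor C1 inhibitor (Serping1), the plasmin inhibitor antiplasmin (Serpinf2), heparin cofactor II (Serpind1) and the corticosteroid and thyroxine carriers Serpina6 and Serpina7. A floor value means a level not above 10 and not an absence of transcript. Across all genes, 72.0% lay above the floor on at least 1 array, against 16 of the 40 Serpin genes.

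With dox, 3 Serpin genes were 2-fold or more higher in both fractions (Serpinb2, Serpini1 and Serpinb1b) and 1 was lower in both (Serpinh1). Over the 13100 genes above the floor on at least 1 array, 4.95% were higher and 8.02% lower by the same rule. In Sca1+ cells 5 of the 16 Serpin genes were higher and 4 lower, beside 7.93% and 12.1% of all genes. In Sca1- cells 5 were higher and 2 lower, beside 6.74% and 10.6%. With each array centred on its overall median, which lies near the floor, the Sca1+ shares of all genes were 5.69% higher and 15.1% lower. By that centring 5 Serpin genes were higher and 5 lower. Centred on probe sets with a mean of 100 or more, the shares were 8.53% and 11.5%, and 6 Serpin genes were higher and 4 lower. In bulk RNA, fewer cells of a type and less RNA per cell cannot be told apart. A gene on the floor of 1 or more arrays entered the 16 through its high arrays, so it had to differ, and these counts describe the members without supporting anything. Of the 9 genes measured on all 4 arrays, 1 was higher in both fractions and 1 lower, beside 4.70% and 8.26% of 10263 genes. Of these 9, 2 were higher (7.35% of the 10263) and 3 lower (12.5%) with dox in Sca1+ cells, and 2 higher (6.58%) and 2 lower (10.4%) in Sca1- cells.

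**Figure D1:**
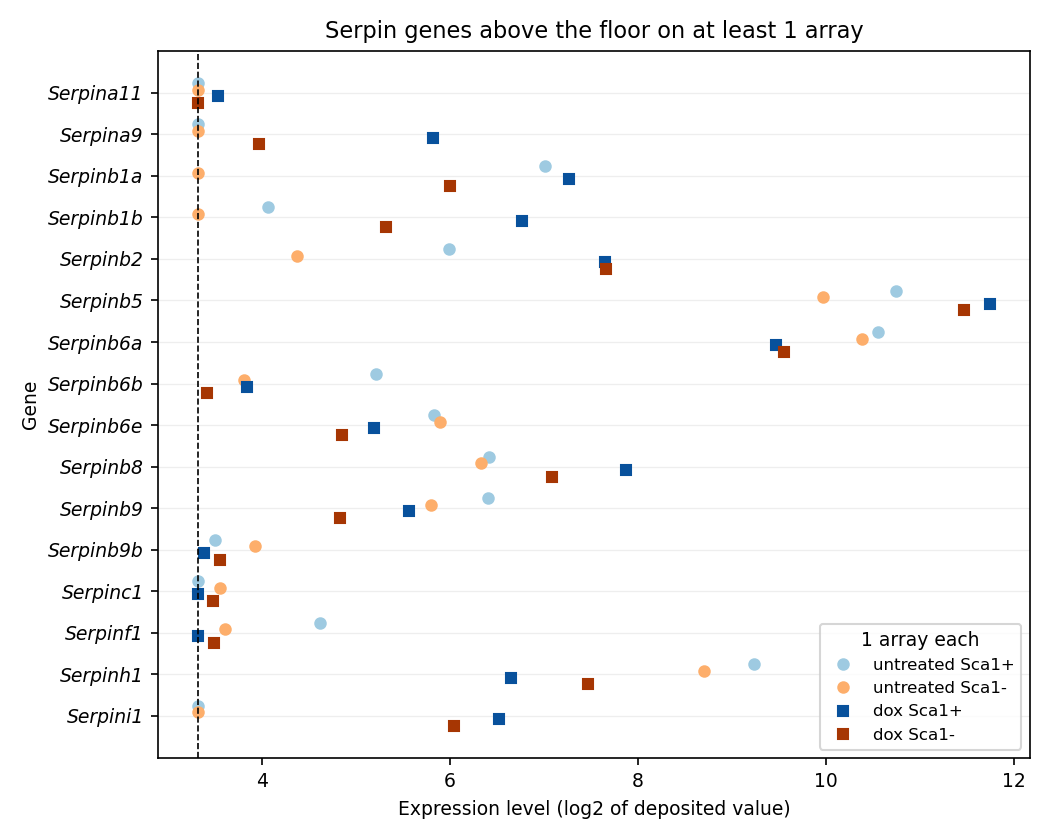
Expression level (log2 of the deposited value, horizontal axis) of the 16 Serpin genes above the floor, with 1 point for each of the 4 arrays and the floor as a dashed line. Serpini1 is at the floor on both untreated arrays and at 6.04 and 6.52 with dox, while Serpinh1 lies lower with dox. Levels of different genes come from different probe sets and are not comparable with each other.

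**Figure D2:**
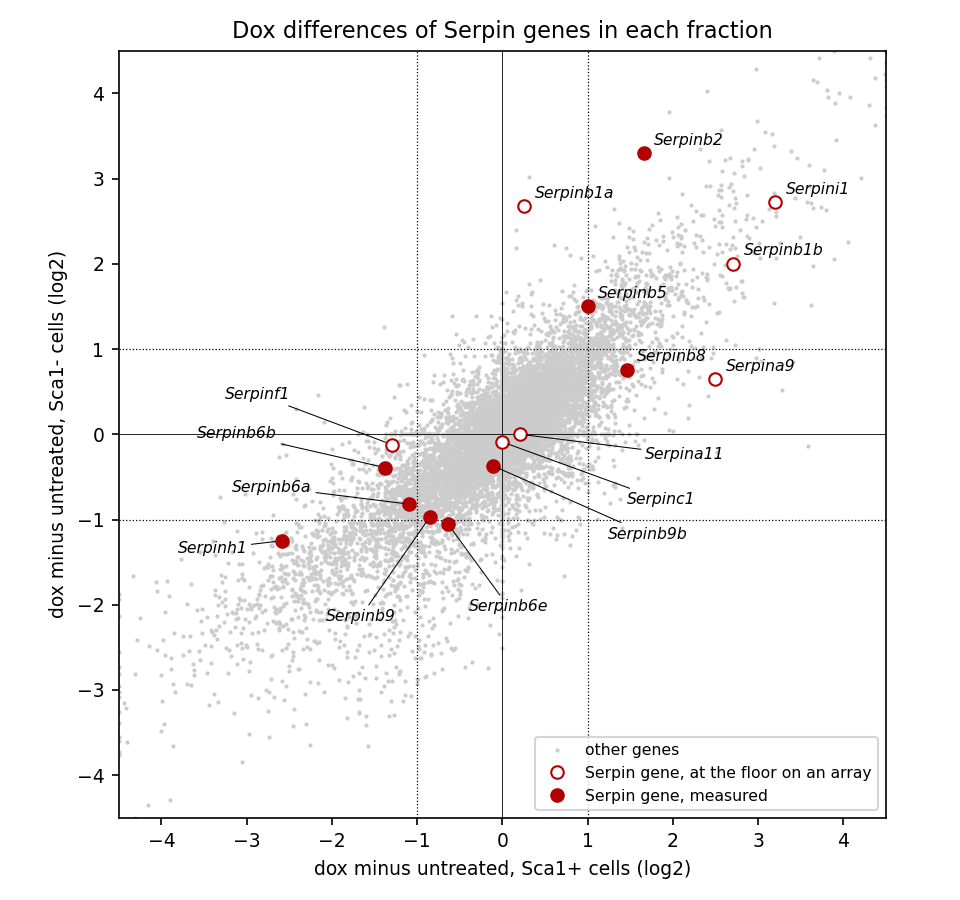
Log2 difference between dox and untreated cells for Sca1+ (horizontal axis) and Sca1- cells (vertical axis), with Serpin genes in red over the other genes in grey. Dotted lines mark 2-fold, open points have an array at the floor, and grey points beyond the axes are drawn at the edge. Serpinb2, Serpini1 and Serpinb1b lie past 2-fold on both axes, and Serpinb1a only for Sca1- cells.

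Serpini1 (neuroserpin), an inhibitor of tissue plasminogen activator best known from neurons, went from the floor to a clear level. It read 3.32 on both untreated arrays, 6.52 in dox Sca1+ and 6.04 in dox Sca1- cells. The arrays of the treatments did not overlap, and the difference was at least 9.17-fold in Sca1+ and at least 6.57-fold in Sca1- cells. A second probe set read 6.62 and 5.67 with dox and was likewise at the floor without it, but the one remaining probe set was at the floor on all 4 arrays.

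Serpinb2 (plasminogen activator inhibitor type 2), which inhibits urokinase and stays largely in the cytosol, read 5.99 in untreated Sca1+ and 4.37 in untreated Sca1- cells. With dox it read 7.65 and 7.66. Both dox arrays were therefore alike, and the unequal starting levels gave a 3.15-fold difference in Sca1+ and a 9.84-fold difference in Sca1- cells. The dox difference was 1.64 (log2) larger in Sca1- cells, and that gap has no replicate check.

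Serpinb5 (maspin) was measured by 4 probe sets that gave the same picture. By the most intense, it read 10.75 in untreated Sca1+, 9.97 in untreated Sca1-, 11.75 in dox Sca1+ and 11.47 in dox Sca1- cells. Both dox arrays lay above both untreated arrays. The difference was 1.00 (log2) in Sca1+ cells, which falls just short of 2-fold before rounding, and 1.5 in Sca1- cells. Over the 4 probe sets it ran from 0.78 to 1.00 and from 1.03 to 1.5.

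Serpinb8, an intracellular serpin that inhibits furin, read 6.42 and 6.33 in untreated Sca1+ and Sca1- cells and 7.88 and 7.09 with dox. The dox difference was 2.75-fold for Sca1+ and 1.69-fold for Sca1-. Its second probe set gave 1.19 and 1.25 (log2), so the unequal size in the fractions was seen with 1 of its 2 probe sets.

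Serpinb1a and Serpinb1b are mouse counterparts of the human leukocyte elastase inhibitor, which acts on neutrophil granule proteases. Serpinb1a read 7.01 in untreated Sca1+ cells, the floor in untreated Sca1- cells, 7.27 in dox Sca1+ and 6.0 in dox Sca1- cells. Its dox difference was 0.26 (log2) in Sca1+ and at least 2.68 in Sca1- cells, so the untreated Sca1- array alone stood low. A dimmer probe set, whose suffix marks sequence shared with other transcripts, had smaller differences of -0.10 and at least 0.26. Serpinb1b read 4.07, the floor, 6.77 and 5.32 in the same order of groups. The dox array was 6.53-fold above its untreated partner for Sca1+ and at least 4.0-fold above it for Sca1-. The copies are similar in sequence, and cross-hybridization between them was not tested.

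Serpinh1 (Hsp47), which binds procollagen in the endoplasmic reticulum, was the one member lower by 2-fold in both fractions. It read 9.24 in untreated Sca1+, 8.71 in untreated Sca1-, 6.65 in dox Sca1+ and 7.47 in dox Sca1- cells. Both dox arrays lay below both untreated arrays, with a 6.02-fold difference in Sca1+ and a 2.37-fold difference in Sca1- cells. The second Serpinh1 probe set gave -2.48 and -1.28 (log2), beside -2.59 and -1.25. The dox difference was thus 1.34 (log2) larger in size in Sca1+ cells.

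Of the clade B6 and B9 genes above the floor, 3 were lower with dox by 2-fold in 1 fraction each. These were Serpinb6a and Serpinb6b in Sca1+ cells (12.1% of all genes) and Serpinb6e in Sca1- cells (10.6%). Serpinb9 and Serpinb9b did not reach 2-fold, and Serpinb6c, Serpinb9c, Serpinb9d and Serpinb9g were at the floor. Serpinb6a, the counterpart of a human inhibitor of thrombin and cathepsin G, read 10.56 and 10.39 in untreated Sca1+ and Sca1- cells and 9.47 and 9.56 with dox, differences of -1.09 and -0.82 (log2). Serpinb9, the granzyme B inhibitor that protects cells from cytotoxic granules, read 6.41 and 5.80 untreated and 5.57 and 4.83 with dox, differences of 1.80-fold and 1.96-fold. Serpinb6e read 5.83 and 5.90 untreated and 5.19 and 4.85 with dox. Its probe set has a suffix for probes that can match other sequences, so its signal may be shared with its copies. Serpinb6b read 5.22, 3.81, 3.84 and 3.42 in the order of groups used for Serpinb1b, so that the untreated Sca1+ array alone stood high. Serpinb9b stayed between 3.39 and 3.93.

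The secreted clade C and F members were close to the floor. Serpinf1 read 4.62 in untreated Sca1+ cells, 3.61 in untreated Sca1-, the floor in dox Sca1+ and 3.49 in dox Sca1- cells. The drop with dox was at least 2.46-fold for Sca1+, and its second probe set, at the floor without dox, had a difference of at least 0.20 (log2) in the other direction. Serpinc1 (antithrombin) was at 3.56 and 3.48 in the Sca1- cells and at the floor in both Sca1+ arrays. Over the 16 genes the median dox difference was 0.10 (log2) in Sca1+ and -0.04 in Sca1- cells, beside 0.02 and 0.00 over all genes. Over the 9 genes on all arrays it was -0.64 and -0.39, beside 0.04 and 0.04.

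**Figure D3:**
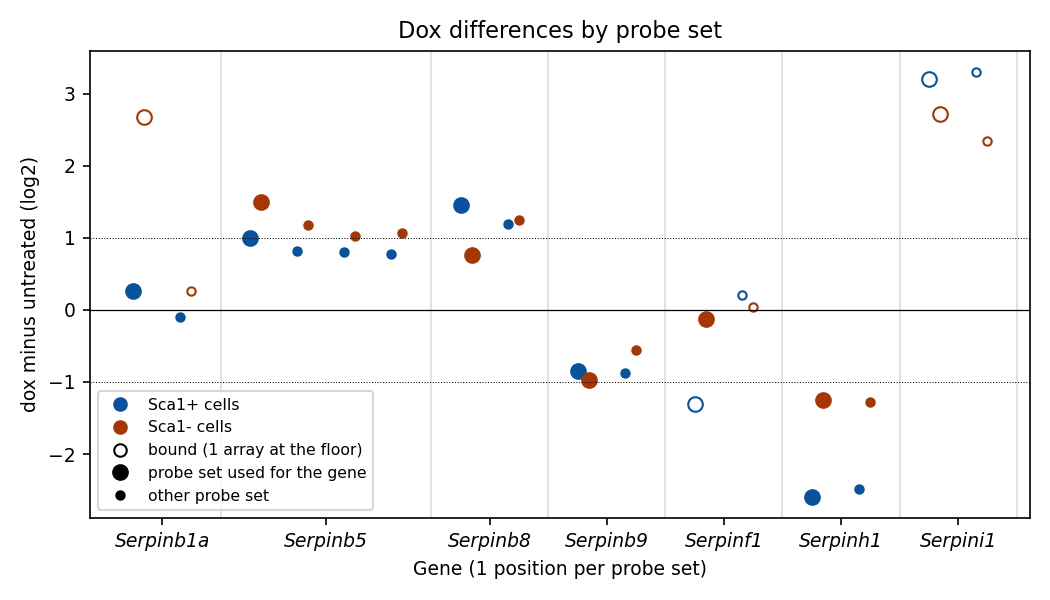
Log2 dox difference (vertical axis) for each probe set above the floor of the 7 Serpin genes with more than 1, blue for Sca1+ and red-brown for Sca1- cells. Large points are the probe set used for the gene and open points are bounds with an array at the floor. The 4 Serpinb5 probe sets all lie between 0.78 and 1.5, whereas those of Serpinb1a and Serpinf1 differ.

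An additive limma fit over the 13100 genes, with terms for dox and Sca1, gave the mean dox effect a standard error. That error comes from the gap between the fractions' dox differences, drawn toward a variance pooled over all genes. A real difference in dox effect between the fractions therefore counts as error. The fit takes the fractions as separate samples, although both may come from 1 culture per treatment, and takes floor values as measured. At a Benjamini-Hochberg adjusted p under 0.05, 5 Serpin genes were higher with dox and 4 lower, beside 11% and 13.5% of all genes. At an unadjusted p under 0.05 these were 6 and 5, beside 19.9% and 20.5%. Of the higher genes, Serpini1 is at the floor on both untreated arrays and Serpinb1b on the untreated Sca1- array. The floor hides their variation, so their p-values are not given. The others were Serpinb5 (mean effect 1.25, SE 0.191, limma adjusted p = 0.0214), Serpinb2 (2.48, SE 0.432, 0.0273) and Serpinb8 (1.11, SE 0.227, 0.0384). The lower genes were Serpinb9 (-0.91, SE 0.149, limma adjusted p = 0.0244), Serpinb6a (-0.96, SE 0.161, 0.0252), Serpinh1 (-1.92, SE 0.364, 0.0324) and Serpinb6e (-0.84, SE 0.177, 0.0403). Each of the 9 had the same direction in both fractions. The fit favours such genes, because it takes the gap between the fractions' dox differences as error. This agreement is therefore no separate support.

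The clade B genes lie in a pair of clusters in RefSeq, on chromosome 1 (12 genes) and chromosome 13 (16 genes), with no other protein-coding gene between them. On chromosome 1, 7 had a probe set here and 3 were above the floor: Serpinb5 at one end and Serpinb2 and Serpinb8 at the other. By the probe set used per gene, Serpinb2 alone was 2-fold higher with dox in both fractions (4.95% of all genes). Serpinb5 was so only in Sca1- and Serpinb8 only in Sca1+ cells. With probe sets averaged, Serpinb8 was also 2-fold higher in both (3.61% of all genes). With arrays centred on probe sets with a mean of 100 or more, so was Serpinb5 (4.92%). These calls therefore depend on the processing. Serpinb12, Serpinb3a, Serpinb11 and Serpinb7, which lie between them, were at the floor. On chromosome 13, 11 had a probe set and 7 were above the floor. There Serpinb1a and Serpinb1b had positive dox differences in both fractions, and Serpinb6a, Serpinb6b, Serpinb6e, Serpinb9 and Serpinb9b negative ones, although Serpinb9 and Serpinb9b lie between the Serpinb1 copies. Of the nearest measured genes outside, Vps4b beside Serpinb5 had dox differences of -0.10 and -0.09 (log2), Kdsr of -0.61 and -0.29 and Wrnip1 beside Serpinb1a of -0.91 and -0.20. On the far side of chromosome 1, Cdh19 had differences of at least -0.54 and -0.77, and Cdh7 read at most 3.35. Of the other chromosome 13 flanks, Mylk4 was at the floor and Bphl had differences of 0.19 and 0.30. Nqo2, next to Serpinb6a, went from 6.08 and 6.47 to the floor and 4.26, differences of at least -2.76 in Sca1+ and of -2.21 in Sca1- cells.

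**Figure D4:**
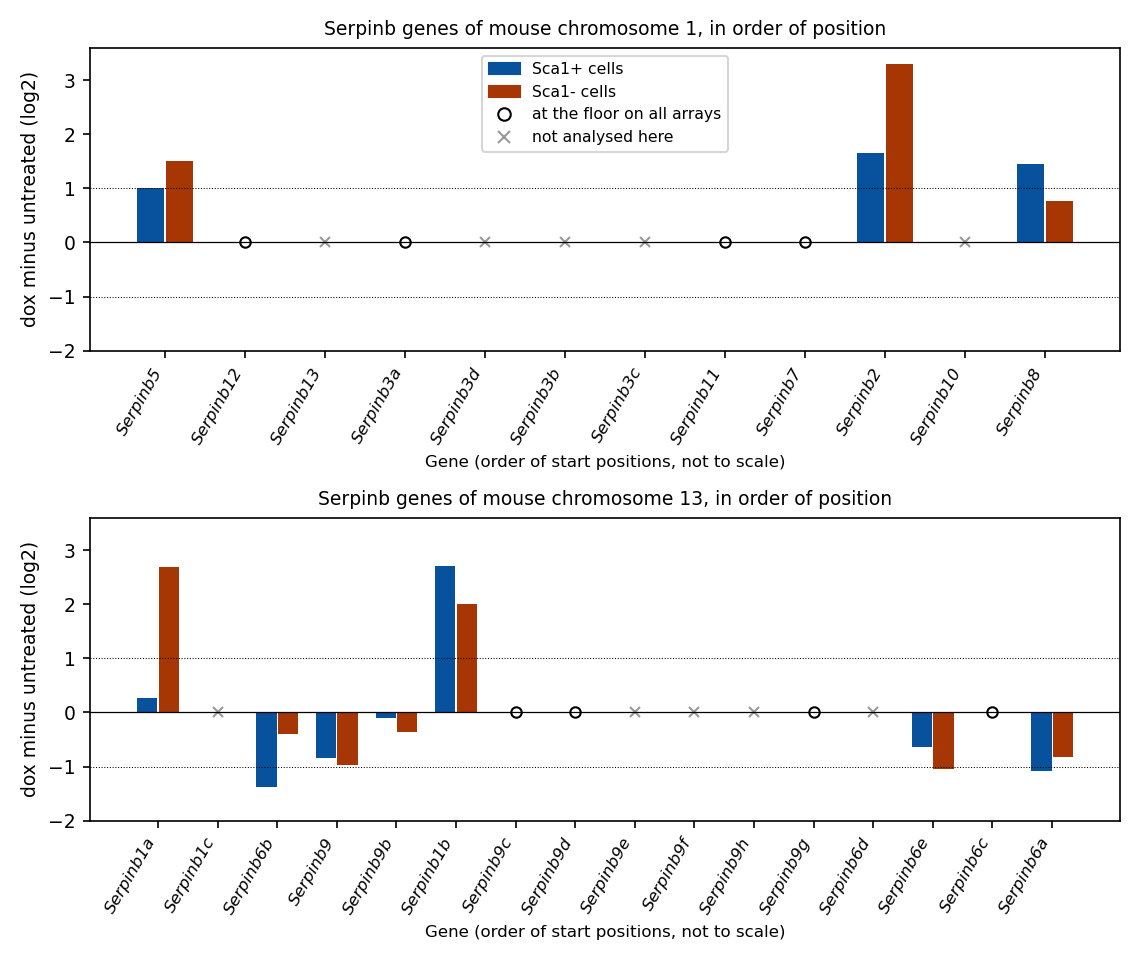
Log2 dox difference (vertical axis) of the Serpinb genes of chromosomes 1 and 13 in order of position, blue for Sca1+ and red-brown for Sca1- cells, with genes at the floor as open circles and genes not analysed here as crosses. On chromosome 1 the 3 genes above the floor have positive bars; on chromosome 13 both directions occur. The Sca1- bars of Serpinb1a and Serpinb1b are lower bounds.

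The comparison of the sorted fractions asked which Serpin genes went with Sca1. Without dox, 4 of the 16 were 2-fold or more higher in Sca1+ cells (Serpinb1a, Serpinb2, Serpinb6b and Serpinf1) and 0 lower, beside 2.87% and 3.11% of all genes. With each array centred on its overall median the shares were 4.91% and 2.11%, and 5 Serpin genes were higher and 0 lower. Centred on probe sets with a mean of 100 or more, they were 2.69% and 3.21%, and 3 Serpin genes were higher and 0 lower. With dox, 3 were higher (Serpina9, Serpinb1a and Serpinb1b) and 0 lower, beside 2.36% and 2.79%. Serpinb1a alone was higher both times, beside 1.01% of all genes (0 lower, beside 0.824%), at least 12.9-fold without and 2.41-fold with dox. By its dimmer probe set the Sca1 differences were smaller, at least 0.70 (log2) without and 0.34 with dox, and with its probe sets averaged it was not 2-fold higher both times. These comparisons use the same 4 arrays as the dox differences, so a single array that stands low, such as untreated Sca1- for Serpinb1a, enters both. Of the 9 genes on all arrays, 2 were higher in Sca1+ cells without dox (2.61% of the 10263) and 0 lower (2.53%), 0 were higher (2.17%) or lower (2.74%) with dox, and 0 were higher (1.08%) or lower (0.731%) both times.

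Serpinb2 was 3.09-fold higher in Sca1+ cells without dox and had a difference of -0.01 (log2) with dox. Serpinb6b was 2.66-fold higher without dox and 1.34-fold higher with it. Serpinf1 was 2.01-fold higher without dox, at a level near the floor. Serpina9 was at the floor in both untreated fractions and 3.6-fold higher in Sca1+ cells with dox, and Serpinb1b at least 1.67-fold and 2.74-fold higher. Serpinb5 was 1.72-fold and 1.22-fold higher in Sca1+ cells, and Serpinb9 1.53-fold and 1.66-fold. The second Serpinb9 probe set gave 0.14 without and -0.19 with dox (log2), so its difference with dox had the opposite sign. Serpinb6a differed by 0.17 and -0.10 (log2). Serpinh1 had a difference of 0.53 without dox and of -0.82 with dox, and its second probe set gave 0.51 and -0.69. In the limma fit 0 Serpin genes passed an adjusted p of 0.05 for Sca1, as did 0.00% of all genes. At an unadjusted p under 0.05, 5 Serpin genes were higher (5.99% of all genes) and 0 lower (7.37%).

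**Figure D5:**
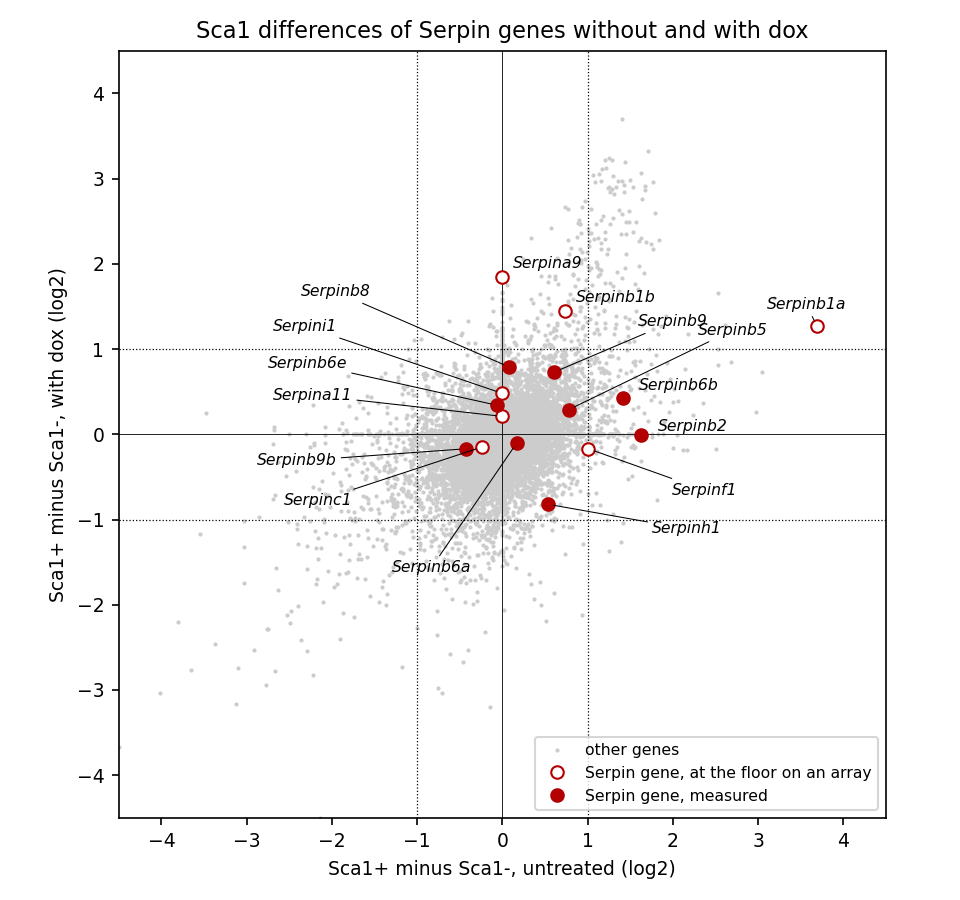
Log2 difference between Sca1+ and Sca1- cells without dox (horizontal axis) and with dox (vertical axis), drawn as in the plot of dox differences. Serpinb1a is past 2-fold on both axes, Serpinb2 only without dox, and no Serpin gene is past 2-fold in the lower direction.

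Markers of the line and of other cells give the setting of these values. Of 7 basal markers 5 were above the floor on all arrays, and 7 of 8 luminal markers. Krt14 stayed between 11.54 and 11.92, Krt5 went from 11.46 and 10.77 in untreated Sca1+ and Sca1- cells to 7.47 and 7.63 with dox, and Acta2 from 7.65 and 7.93 to 4.78 and 4.84. Krt17 read 10.68 and 9.99 against 9.57 and 9.89, and Trp63 10.14 and 8.77 against 9.70 and 8.63. The summed linear level of the luminal markers was 4140 in untreated Sca1+, 8429 in untreated Sca1-, 2348 in dox Sca1+ and 4029 in dox Sca1- cells. It was lower in Sca1+ cells and lower with dox, and its part in the Serpin differences was not tested. The basal sum was 9303, 6443, 5552 and 5462, and the part of these markers was not tested either. At the floor on all arrays were 3 of 9 fibroblast, 6 of 11 leukocyte, 3 of 5 endothelial and 4 of 6 hepatocyte markers. They include Ptprc, Cd3e, Itgam, Mpo, Pdgfrb, Col1a1, Cdh5 and Ttr. Above it on all 4 arrays were Pdgfra (4.24 and 5.15 untreated, 4.12 and 4.45 with dox), Csf1r (4.06 to 4.79), Laptm5 (3.56 to 4.25) and Cd68. The 9 fibroblast markers summed to 99 and 115 untreated and to 778 and 444 with dox, where Dcn went from the floor to 9.41 and 8.42. The 11 leukocyte markers summed to 119, 130, 205 and 190 in the same order, where Cd68 went from 3.37 and 3.76 to 6.16 and 6.16. The part of either in the Serpin differences was not tested.

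The proteases and receptors that secreted serpins act on were given as a fixed list, of which 25 of 36 measured genes were above the floor. With dox, 3 were 2-fold or more higher in both fractions (Plat, Plaur and Prss23) and 6 lower (Plau, Htra1, St14, Prss22, Procr and Sdc4), beside 4.95% and 8.02% of all genes. Plat, the tissue plasminogen activator that neuroserpin inhibits, read 6.80 and 6.13 in untreated Sca1+ and Sca1- cells and 11.69 and 11.18 with dox. Plau, the urokinase that Serpinb2 inhibits, read 7.91 and 7.15 untreated and 6.08 and 6.06 with dox, and its receptor Plaur 5.11 and 5.95 against 7.53 and 7.47. The membrane protease gene St14 (matriptase) had dox differences of -2.11 and -1.29 (log2), and the secreted protease gene Htra1 of -2.44 and -2.39. Plg, the substrate of both activators, was at the floor. The list's median dox difference was -0.32 and -0.12.

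Of the granule, lysosomal and cytosolic proteases that clade B serpins act on, 12 of 21 were above the floor. Ctsg, Gzma, Gzmb, Cma1 and Mcpt4, targets in blood cells, were at the floor on all 4 arrays, and Elane read 3.32 untreated and 3.93 and 3.87 with dox. In both fractions 2 genes were higher with dox, the kallikreins Klk8 (3.02 and 3.13, log2) and Klk10 (at least 2.58 and 2.57), and 1 was lower, the lysosomal Ctsh (-4.92 and -2.95), beside 4.95% and 8.02% of all genes. Casp1, between 9.05 and 9.71, and Ctsl, between 11.06 and 11.89, were above the floor on every array. The list's medians were 0.21 and 0.24.

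Inhibitors of other families went both ways. Of 31 measured, 25 were above the floor. With dox 3 were higher in both fractions and 2 lower, beside 4.95% and 8.02% of all genes. The higher ones were the cystatins and stefins Cst3 (1.27 and 1.44, log2), Csta1 (3.82 and at least 3.96) and Stfa3 (at least 2.54 and 1.44). Lower in both were Slpi (-3.12 and -2.05), a secreted elastase inhibitor, and Cst6 (at least -1.45 in Sca1+ and -1.31 in Sca1- cells). The medians were -0.03 and -0.06. Among 28 collagen chains and folding partners of Serpinh1, 25 were above the floor. With dox 3 were higher in both fractions (Col5a2, Fkbp14 and P3h1) and 2 lower, again beside 4.95% and 8.02%. The lower ones were Crtap (-2.19 and -1.54) and P3h4 (-2.99 and -2.06), both parts of collagen-modifying complexes. Col5a2 had dox differences of 2.81 and 3.20. Col1a1 and Col3a1 were at the floor, and the chaperone genes Hspa5, Hsp90b1, Canx and Calr stayed within 2-fold. The list's medians were 0.03 and -0.06, beside -2.59 and -1.25 for Serpinh1.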

How the data were processed

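The deposited table gives log2 expression levels for 45101 probe sets on 4 Affymetrix arrays, 1 per group, labelled by a 3' IVT protocol from 50 to 500 ng of total RNA per the labels. Summarization and scaling are not stated in the sources used here. All columns share a minimum of 3.32, so the deposited values had been floored at a linear 10, and 44.8% to 48.0% of probe sets lie there. Array medians were 3.48 to 3.70, and 8.20 to 8.24 over probe sets with a mean of 100 or more. The number of arrays limits the precision.

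Symbols came from a platform annotation (34958 probe sets with 1 symbol, 932 with several, 9211 unnamed here). All 3 Serpin probe sets with several symbols were at the floor. Members above the floor on any array are described, with all 4 values where a difference reached 2-fold. A difference against a floor value is a bound, written "at least". The fit used limma 3.58.1 (R 4.3.3) and was run on simulated data with 200 changed genes. Those data had independent arrays and no Sca1 difference, so the run does not vouch for the p-values here. Alternatives were probe-set averaging, 2 centrings, a raised floor, 2 filters and 2 thresholds. From the fixed lists, genes 2-fold different the same way in both fractions are named; other list genes were named after their values were seen. Members and lists were chosen with earlier results of these data known. Flanking genes and motifs were chosen after the values were seen.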

Additional observations from a re-analysis of the deposited data

Results flagged for a closer look

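By the 1 probe set used per gene, the Sca1+ to Sca1- difference had opposite signs without and with dox for 5 Serpin genes. The same count was not made over all genes, so the 5 are described and not read as a trait of the family. Each value rests on 1 array per group, and these differences between treatments were not tested. Serpinh1 had 0.53 (log2) without dox and -0.82 with it. Serpinb2 had 1.63 and -0.01, and Serpinf1 1.01 and -0.17, the latter with an array at the floor. Serpinb6a had 0.17 and -0.10, and Serpinb6e -0.06 and 0.34, where centring each array on its overall median turned the value without dox to 0.16. Centring on bright probe sets turned the Serpinb2 value with dox to 0.03, and with the floor at 32 Serpinf1 had 0.00 both times. Of these genes, only Serpinb2 and Serpinf1 reached 2-fold, and only without dox. Dox differences had the same sign in both fractions for every Serpin gene with a difference in both, in the values as deposited and by the 1 probe set used per gene. The share of all genes with the same sign in both was not counted, so this describes the members only. The second Serpinb1a probe set had -0.10 in Sca1+ and at least 0.26 in Sca1- cells.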

How the results depend on the processing

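No paired analysis was possible because each group has 1 array and the labels carry no replicate numbers; the additive limma fit pairs dox with untreated within each fraction, which is not a replicate block. Of 100 counts of Serpin genes recomputed under the alternatives, 74 stayed within 1.5 times the reported count. The reported counts of genes lower in Sca1+ than in Sca1- cells were 0, and nearly all of them stayed 0. Of the 2 filters, the looser dropped only genes that read below 3.63 (log2) on every array. Such genes lie so near the floor of 3.32 that they cannot differ by 2-fold. This filter therefore had to return every reported count of Serpin genes, and its rows are no check. For both reasons the 74 overstates how far the other counts held. Of 96 recomputed differences that had reached 2-fold after rounding, 81 stayed there after rounding and 0 changed sign. Part of this was fixed beforehand. Averaging returns the same value for a gene with 1 probe set, and raising the floor cannot reverse a sign. The 96 include Serpinb5 with dox in Sca1+ cells, which fell just short of 2-fold before rounding. Smaller differences could change sign, as Serpinb6e did between the untreated fractions (-0.06 to 0.16, log2, with each array centred on its overall median). Averaging probe sets left 0 genes higher in Sca1+ cells at both treatments (0.702% of all genes). With the floor at 32, 2 genes were lower with dox in Sca1+ (11.6%) and 1 in Sca1- cells (9.74%), and 1 was higher in Sca1+ cells without dox (2.49%). Among genes above the floor on all arrays, 2 were higher with dox in Sca1+ cells, 2 in Sca1- cells and 1 in both; 2 were higher in Sca1+ cells without dox, 0 with dox and 0 both times. At 1.5-fold, with the share of all genes in brackets, 4 were lower with dox in Sca1- cells (18.2%), 6 higher (11.1%) and 4 lower (14%) in both fractions, 7 higher in Sca1+ cells without dox (7.93%), 5 higher (6.45%) and 1 lower (8.41%) with dox, and 3 higher both times (2.73%). At 3-fold, 1 was lower with dox in Sca1+ cells (6.12%), 0 in Sca1- cells (4.99%) and 0 in both (3.30%), and 2 were higher in Sca1+ cells without dox (0.542%), 1 with dox (1.09%) and 0 both times (0.137%). The limma fit gave 5 higher and 4 lower with dox and 0 higher for Sca1 (5 at an unadjusted p under 0.05). Genes near the floor are limited by it.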
